A study of Homo sapiens with 4 samples.

Results

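H3K27me3, the trimethylated lysine of histone H3 that Polycomb repressive complex 2 writes, was mapped by ChIP-seq in SH-SY5Y, a human neuroblastoma line that takes on neuron-like features in retinoic acid. The widest stretches of closely spaced rows of the mark are described here. They were found by joining successive H3K27me3 rows of the authors' region list wherever these lay up to 3 kb apart, and by keeping autosomal domains of 50 kb or wider. This gave 404 wide domains of 38537 H3K27me3 domains in all, or 1.20% of the 33793 autosomal ones. A further 18 domains of that width lay on the sex chromosomes and were left aside. The domains were thus chosen by the measured H3K27me3 rows, so width, cover, gaps and row scores are given as a description.

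The series holds 4 libraries, all from cells kept in 10 uM retinoic acid for 8 days, with 1 library per group. A streptavidin pull-down of CHD5 from cells expressing FBio-CHD5, the tagged form of a chromodomain nucleosome remodeler, supplied the CHD5 peaks. H3K27me3 was precipitated with an antibody from cells that also expressed FBio-CHD5. A pull-down from cells carrying the FBio-Ctrl construct and an input library complete the series, and no list was used here for either. The labels do not say what drives the construct, and whether the cells were 1 clone is not given in the sources used here. With no replicate there is no replicate error. Read counts are not part of the lists, which leaves the depth unknown. Intervals cover counting error only and treat peaks and domains as independent, which neighbouring ones are not.

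Polycomb repressive complex 2 can bind the mark it writes and extend it along the chromatin, and in differentiated cells wide H3K27me3 domains are known at silent genes of development. CHD5 belongs to a helicase family found in nucleosome remodeling and deacetylase complexes, and its chromodomains have been linked to H3K27me3. Where CHD5 peaks lie relative to the inside, the edges and the surroundings of these domains is therefore the comparison made here. The H3K27me3 rows chose the domains and the CHD5 peaks did not.

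Wide domains were few and carried a large share of the mark. Together they spanned 32.4 Mb and held 38891 of 239794 autosomal rows, or 16.2%, and 23.9% of all autosomal row bases. Their widths ran up to 295 kb with a median of 68.4 kb. Of the 404, 122 were narrower than 60 kb and 70 reached 100 kb. The last domain inside the limit, on chromosome 13 from 112867193 to 112917213, spanned 50021 bp, and the first outside it, on chromosome 21 from 39677070 to 39726908, spanned 49839 bp. Rows within wide domains had a median of 315 bp and a median authors' score of 124, and rows of other autosomal domains had a median of 232 bp and a score of 80.6. A score of 3100 or more, near the top of the scale, occurred in 0.599% of the rows in wide domains and in 0.0388% of the other rows. At least 1 such row was present in 75 of the 404 domains.

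Chromosomes differed in how many wide domains they carried. Chromosome 7 had 56, chromosome 6 had 49 and chromosome 1 had 43, which together made 148 of the 404. Per length, chromosomes 19 and 7 led with 35.5 and 35.2 wide domains per 100 Mb, and chromosomes 3 and 11 had 2.53 and 2.97. On chromosome 7 wide domains made up 3.33% of the listed span, and on chromosome 3 they made up 0.140%.

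**Figure D1:**
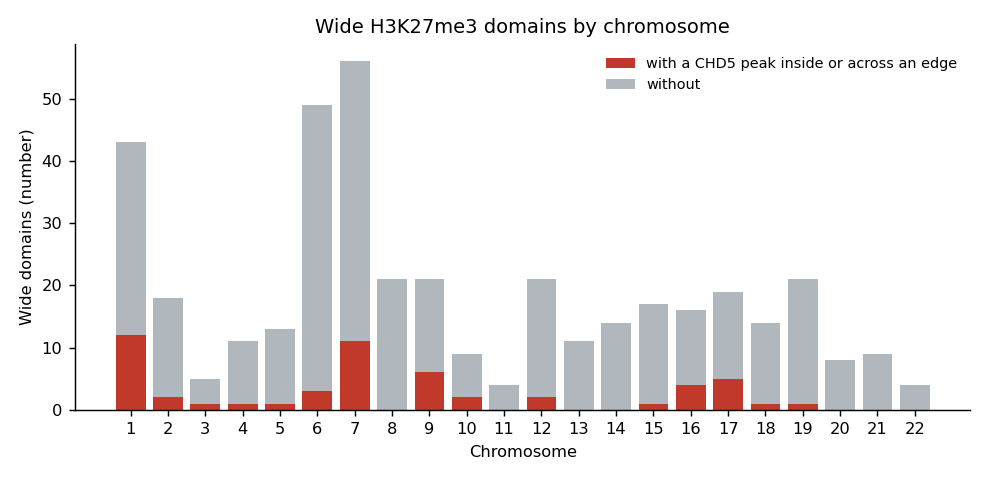
Number of wide H3K27me3 domains on each autosome; red, domains with a CHD5 peak inside or across an edge, grey, domains without. Chromosome 7 has 56 wide domains, 11 of them with CHD5, and chromosome 8 has 21, none of them with CHD5.

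Wide domains gathered near centromeres and chromosome ends. The longest stretch without a row in either list marks the centromeric gap of a chromosome, or its empty short arm on chromosomes 13, 14, 15, 21 and 22. Within 10 Mb of that stretch lay 125 wide domains, or 32.1 per 100 Mb. Within 5 Mb of a chromosome end lay 65, or 33.3 per 100 Mb, and the remaining 214 had a density of 10.1 per 100 Mb. Median cover by rows was 61.0% beside the unlisted stretch, 52.5% near the ends and 55.9% elsewhere. Such zones are known to be rich in duplicated sequence, in which reads are hard to place. The part of copy number and read placement in these domains was not tested. How dense narrower H3K27me3 domains were in the same zones is not given here.

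Wide domains also lay in groups. Of the 404, 102 fell into 46 runs in which successive wide domains were up to 50 kb apart, and 8 runs held 3 or more. No such count is given for narrower domains. The longest run lay on chromosome 17 from 46238852 to 46896037, where 4 wide domains filled 98.3% of 657 kb. A second run of 3 followed on the same chromosome from 47025324 to 47327556. A run of 4 on chromosome 16 from 1022248 to 1354508 filled 83.7% of 332 kb, and a run of 3 on chromosome 1 from 161397334 to 161710807 filled 95.9% of 313 kb. By the joining rule no row lay within 3 kb outside an edge. The next row outside an edge lay within 5 kb at 349 of 807 edges, within 10 kb at 73.0% and within 50 kb at 90.5%, with a median distance of 5.55 kb.

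Rows covered 60.7% of the joined spans. By domain, the covered share ran from 27.8% to 98.4% with a median of 56.4%, and quartiles of 47.7% and 69.5%. The median for autosomal domains of 20 to 50 kb was 44.6%, and for those of 5 to 20 kb it was 33.9%. At least 50% of the span was covered in 283 domains, at least 80% in 46 and at least 90% in 7. Wider domains tended to be better covered, with a Spearman rho across the 404 domains of 0.28. This is a description of domains from 1 list, since both measures come from the same rows.

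The most covered domain lay on chromosome 4 from 9211683 to 9274617, where 27 rows filled 98.4% of 62.9 kb and the largest gap was 79 bp. Next came 151 kb on chromosome 7 from 61096778 to 61247986, beside the centromeric gap, at 97.9%. Chromosome 7 also held the third, 172 kb from 155162094 to 155333670 with 94.7%, and the fifth, 59.2 kb from 155587698 to 155646880 with 93.1%. The fourth, on chromosome 19 from 8851164 to 8904268, had 94.6% of 53.1 kb covered. The least covered, at 27.8%, was on chromosome 19 from 54089736 to 54149702. The following 4 had 28.0% to 30.7%. They began at 189482842 on chromosome 3, at 21657886 on chromosome 9, at 14900888 on chromosome 19 and at 21407903 on chromosome 20. None of these 5 sparse domains held a CHD5 peak inside or across an edge, where 13.1% of all wide domains did. Among the 5 most covered, the domains from 9211683 on chromosome 4, 61096778 on chromosome 7 and 8851164 on chromosome 19 also held none. The domains from 155162094 and 155587698 on chromosome 7 held 4 and 1. Lists of 5 domains are too short to compare CHD5 by cover.

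**Figure D2:**
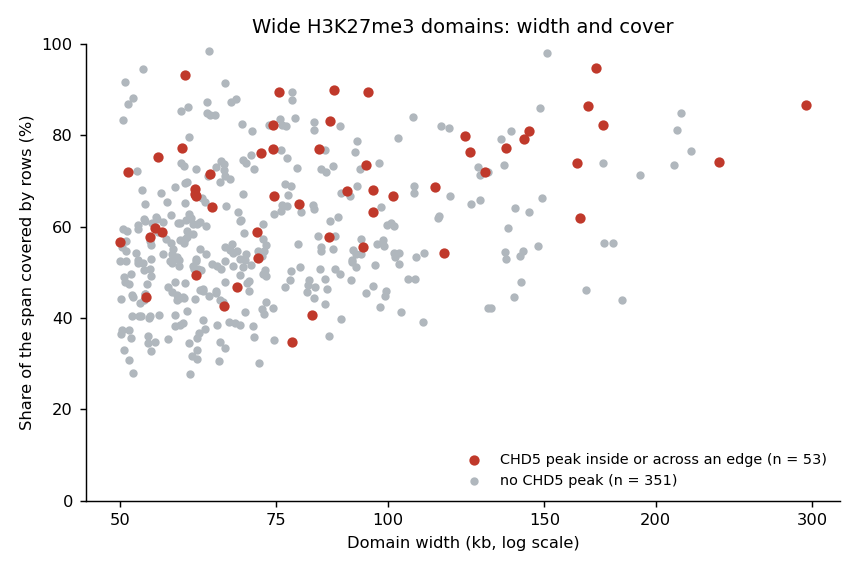
Width in kb (log scale) against the share of the span covered by rows in %, 1 point per wide domain; red, domains with a CHD5 peak inside or across an edge (53), grey, the others (351). Domains with CHD5 lie higher on the cover axis, with a median of 68.7% against 54.8%, and both kinds occur up to 219 kb.

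Gaps inside the domains were mostly short. The 38487 gaps had a median of 164 bp with quartiles of 50 and 412 bp, and by the joining rule none exceeded 3000 bp. Gaps over 1 kb were 7.88% of all gaps and held 38.0% of the 12.7 Mb of gap bases. The largest gap of a domain had a median of 2370 bp. It passed 2 kb in 305 domains and 2.5 kb in 177, and stayed at or under 1 kb in 8. One of those 8, on chromosome 7 from 155846755 to 155924926, had a largest gap of 590 bp over 78.2 kb. The domain on chromosome 6 from 151917 to 290682 had the longest gap possible, 3000 bp, from 167771 to 170770.

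Wide gaps lay towards the edges more often than gaps in general. The outer 10% of the width at each edge held 29.7% of the largest gaps, 27.6% of the 662 gaps over 2 kb and 19.7% of all gaps. The middle of the domains, at least 25% of the width from either edge, held 37.9% of the largest gaps and 50.2% of all gaps. Cover by rows followed the same course. It was 48.1% in the outermost 3 kb, 55.9% from 3 to 10 kb and 59.5% from 10 to 25 kb, where every domain gave equal length. Beyond 25 kb from an edge it was 66.5%, but there the wider and better covered domains weigh more. Some domains had several wide gaps in a row. On chromosome 18 from 75888275 to 75942443, 3 successive gaps left 7423 bp open within 7747 bp. On chromosome 6 from 1481863 to 1559505 the same measure was 7268 bp, and on chromosome 12 from 54293801 to 54406733 it was 6782 bp. Further on chromosome 6, the domains from 151917 and from 26662511 to 26798196 had 6600 and 6546 bp.

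**Figure D3:**
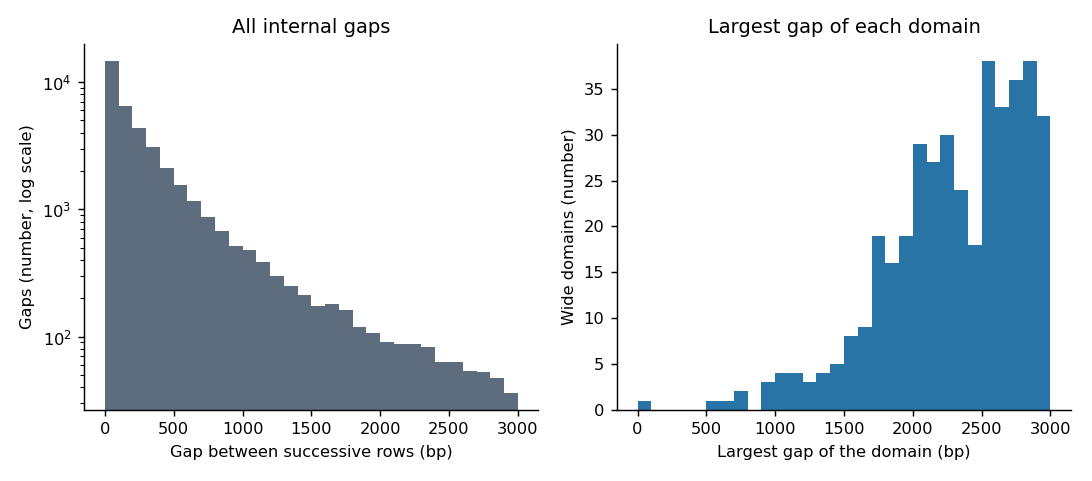
Left, lengths in bp of the 38487 gaps between successive rows of wide domains (number on a log scale); right, the largest gap of each of the 404 domains in bp. Short gaps dominate on the left, with a median of 164 bp, while the largest gaps on the right have a median of 2370 bp and end at the joining limit of 3000 bp.

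The 10 widest domains, of 175 kb or more, differed in how solid they were. The widest, on chromosome 7 from 149628944 to 149924212, spanned 295 kb in 201 rows and was covered at 86.7%. The second, on chromosome 17 from 46533318 to 46769108, spanned 236 kb in 250 rows at 74.3%. The third, on chromosome 14 from 19972847 to 20191999, and the fourth, on chromosome 7 from 143869139 to 144082977, spanned 219 and 214 kb at 76.6% and 84.9%. The fifth, from 46238852 to 46450080 on chromosome 17, had 81.1% of 211 kb covered. A pair on the short arm of chromosome 8, from 7534112 to 7743881 and from 7282765 to 7474648, had 73.5% and 71.3%, the last in 273 rows, the highest number in any wide domain.

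The other 3 were looser. On chromosome 6 from 3364824 to 3548363 rows covered 43.9% of 184 kb, on chromosome 22 from 17835417 to 18014550 they covered 56.4% of 179 kb, and on chromosome 15 from 23564855 to 23740094 they covered 56.5% of 175 kb. The largest gap lay between 2004 and 2884 bp in all 10. Only the first 2 of the 10 held CHD5 peaks inside or across an edge, with 3 and 2. Gene loci, of developmental regulators and of duplicated families alike, were not analysed here, because no annotation of the files' build was used.

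**Figure D4:**
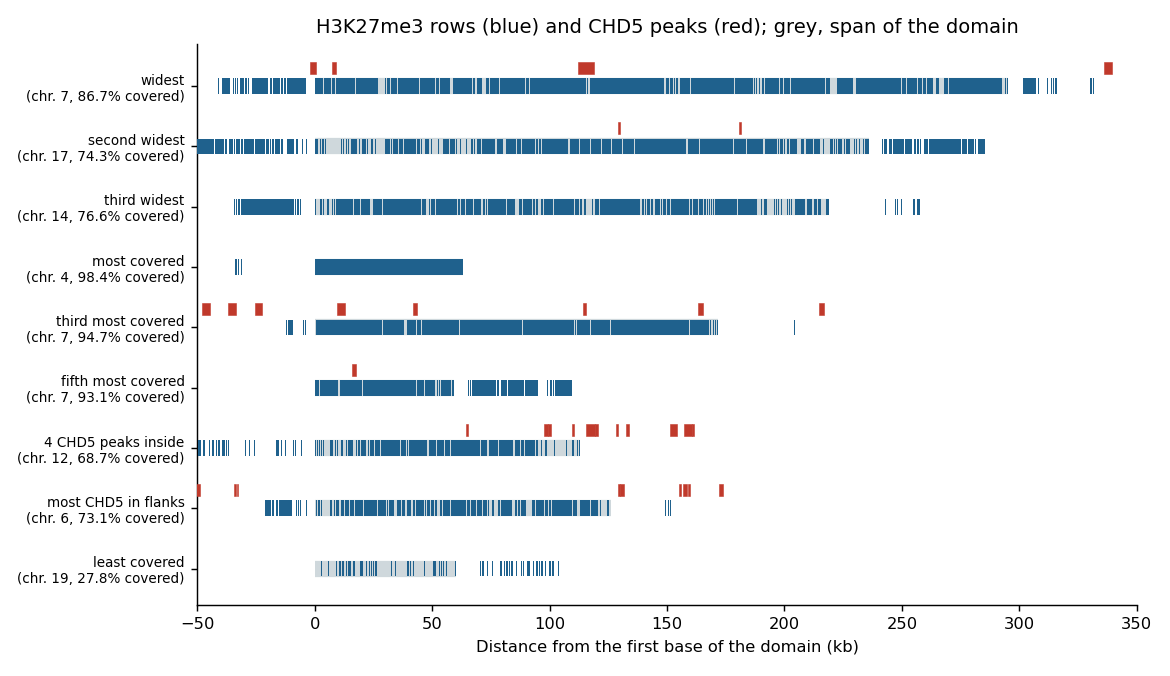
Rows of H3K27me3 (blue), CHD5 peaks (red) and the span of the domain (grey) for 9 wide domains with 50 kb on either side, in kb from the first base of each domain. The third most covered domain is nearly filled at 94.7%, the least covered at 27.8% is mostly open, and in the domain on chromosome 12 with 4 CHD5 peaks inside the 7 flank peaks all lie on 1 side.

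CHD5 peaks were sparse inside wide domains. Inside 49 of the 404 domains, or 12.1% (Wilson 95% interval 9.30% to 15.7%), lay at least 1 whole CHD5 peak, against a background of 0.906% of all autosomal domains, of all widths. Across an edge CHD5 lay in 7 domains, or 1.73% (0.842% to 3.53%), against 1.06% of all autosomal domains. Counting both, 53 domains, or 13.1% (10.2% to 16.8%), met a CHD5 peak, against 1.88%. A wider domain has more room for a peak, and 24263 of the 33793 autosomal domains were under 5 kb, so these shares do not compare equal lengths. In the 20 to 50 kb class 67 of 1631, or 4.11% (3.25% to 5.18%), met a CHD5 peak. In all 82 peaks met a wide domain: 33 domains had exactly 1 and 20 had 2 or more.

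Relative to length, the inside held fewer CHD5 peaks than the surroundings. Peak starts had a density of 2.38 per Mb inside wide domains (exact Poisson 95% interval 1.87 to 2.97, 77 starts). In the 50-kb flanks it was 5.62 per Mb (4.86 to 6.47, 195 starts), and over all autosomes it was 11.2 per Mb (11.1 to 11.3). The intervals of inside, flanks and autosomes did not overlap. The inside value was 0.423 times the flank value, and from 0.289 to 0.446 times in the 9 alternatives in which both were recomputed. Without chromosomes 1, 7 and 17 the inside density was 1.44 per Mb, which is lower by more than 1.5 times, and the flank density was 4.89 per Mb. Domains of 20 to 50 kb had 1.69 starts per Mb inside (1.35 to 2.10), which overlaps the interval of wide domains. Domains of 5 to 20 kb had 2.80 per Mb (2.43 to 3.21), which also overlaps it. Those under 5 kb had 3.98 per Mb (3.30 to 4.75), which lies above it.

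The density had a lower value in each bin inside the edges than in each bin outside, where it did not change steadily with distance. In the outermost 3 kb inside the edges there were 6 starts, or 2.48 per Mb (0.908 to 5.39), and between 3 and 10 kb inside there were 15, or 2.65 per Mb. In the first 3 kb outside there were 17 starts, or 7.16 per Mb (4.17 to 11.5), and between 3 and 10 kb outside there were 38, or 7.33 per Mb (5.18 to 10.1). From 10 to 20 kb outside the density was 4.05 per Mb (2.71 to 5.81), from 40 to 50 kb it was 6.46 per Mb, and from 50 to 100 kb it was 5.49 per Mb (4.66 to 6.42). The intervals of the 3-kb bins on either side of the edge overlapped, and so did those of neighbouring bins within the flanks. From 100 to 200 kb outside it was 8.01 per Mb (7.23 to 8.84), and from 200 to 500 kb it was 10.0 per Mb (9.49 to 10.6), still below that of all autosomes. Around domains of 20 to 50 kb the first bins outside had 4.32 per Mb (3.10 to 5.85) and 2.77 per Mb (2.08 to 3.62). The interval from 3 to 10 kb outside lay below that of wide domains, and the intervals within 3 kb overlapped.

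**Figure D5:**
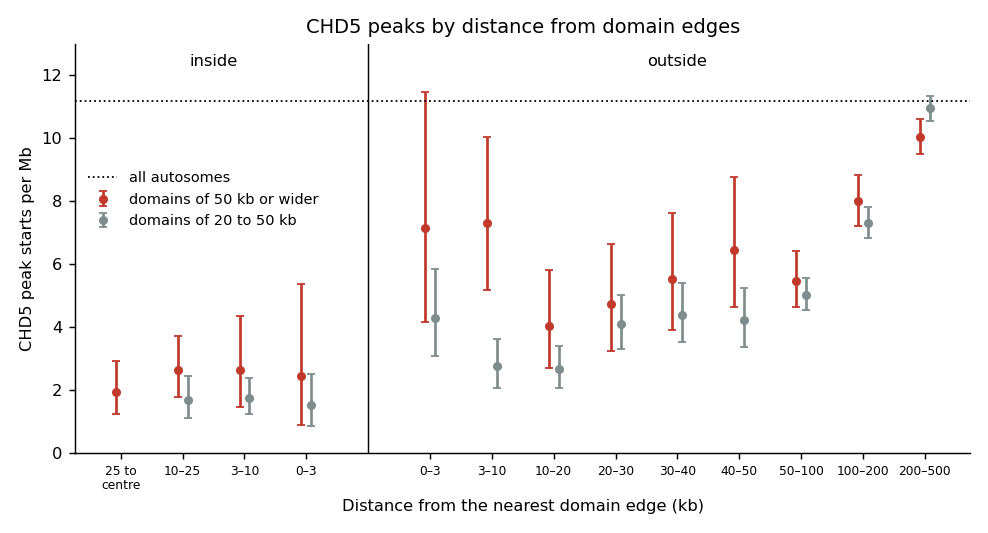
CHD5 peak starts per Mb by distance in kb from the nearest domain edge, inside (left) and outside (right); red, domains of 50 kb or wider, grey, domains of 20 to 50 kb, bars, exact Poisson 95% intervals, dotted line, all autosomes at 11.2 per Mb. Densities inside wide domains stay between 1.97 and 2.65 per Mb, and reach 10.0 per Mb only from 200 to 500 kb outside.

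In the flanks, 127 domains, or 31.4% (27.1% to 36.1%), had at least 1 CHD5 peak within 50 kb, against 19.4% of all autosomal domains. In 24 of them CHD5 lay on both sides and in 103 on 1 side. The lower flanks held 103 peaks and the upper flanks 117, counting a peak once for each domain it flanked. Peaks inside or across an edge of a neighbouring wide domain are part of these flank counts, but the flank density leaves out the bases of wide domains. Neither inside, nor at an edge, nor in a flank was CHD5 found at 250 domains, or 61.9% (57.1% to 66.5%). At 27 it lay inside or across an edge without any in the flanks, at 26 in both places, and at 101 in a flank alone. Other H3K27me3 domains took up 40.7% of the flank bases. With these stretches left out the flank density was 8.31 per Mb (7.11 to 9.65), about 1.5 times as high as with them. The fullest flanks belonged to the domain on chromosome 6 from 28675914 to 28802176, with 3 peaks below it, 6 above it and none inside. The domain on chromosome 1 from 161397334 to 161480021 had 3 on either side and none inside. The 3 above it lay inside the next wide domain, from 161487466 to 161563033. The domain on chromosome 7 from 143218864 to 143305591 had 4 peaks below it and 1 above it.

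CHD5 peaks inside wide domains seldom lay wholly in a gap. Of the 75 peaks wholly inside, 71 touched a row and 4, or 5.33% (2.09% to 12.9%), lay wholly in a gap. In domains of 20 to 50 kb 9 of 77 inside peaks lay wholly in a gap. In those of 5 to 20 kb 28 of 175 did, and in those under 5 kb 12 of 46. Size limits this class: the 75 peaks were at least 830 bp wide, and of the 38487 gaps 3990 were as wide as that. Only 1265 gaps were as wide as the median CHD5 peak inside. The 4 gap peaks were 979 to 1646 bp wide, filled 62.7% to 68.4% of gaps of 1561 to 2517 bp, and came within 152 to 292 bp of a row. The highest score among them, 315, was on chromosome 16 from 1321295 to 1322917. The others scored 151 on chromosome 10 from 15677370 to 15679015, 121 on chromosome 6 from 150262673 to 150263651, and 50.2 on chromosome 12 from 54393270 to 54394446, in a domain that also held 3 peaks on rows. In 2 cases the gap was the largest of its domain. Of the 662 gaps over 2 kb, 660 enclosed no whole CHD5 peak, and of all 38487 gaps 4 enclosed one. Some peaks that touched a row also reached into gaps over 2 kb, which this count leaves out. Where at least 50% of a peak had to lie on rows to count as touching them, 27 of 77 peaks, or 35.1%, counted as gap peaks.

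Counted by bases, CHD5 peaks were on rows about as much as their domains were covered. Of the CHD5 bases within wide domains, 70.4% lay on rows, and the domains that held them were covered at 72.7%, weighted by those bases. By peak, 43 of the 75 inside were covered more than their domain. The share on rows differed between peaks of high and low score, but single peaks overlapped. On chromosome 7 a peak scoring 141 had 98.6% on rows, and on chromosome 1 a peak scoring 110 had 9.74%. The 27 peaks that met a wide domain and scored at or above the median of their list had 55.0% of their bases on rows, where their domains were covered at 69.8%. The 55 with lower scores had 78.7% on rows, where their domains were covered at 74.3%. Peaks touching rows inside had a median score of 83.2, peaks in the flanks had 104, and all autosomal CHD5 peaks had 118. Median widths were 1580 bp on rows, 1614 bp in flanks and 1652 bp over all autosomes.

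Several of the highest-scoring peaks inside straddled a wide gap or a thin stretch of rows. The highest, with a score of 3100 on chromosome 7 from 1395499 to 1399295, had 25.8% of its length on rows. The next, at 1002 on chromosome 16 from 1141719 to 1143797, had 34.5% on rows and touched a gap of 2028 bp. The peak on chromosome 1 from 161580023 to 161583480 scored 306, had 35.6% on rows and touched a gap of 2210 bp. Peaks with low scores could lie wholly on a row, and 8 did. They included 2 of the 4 peaks in the third most covered domain, from 155171416 to 155174817 with a score of 89.7 and from 155325428 to 155327329 with 56.2. In the fifth most covered domain, also on chromosome 7, the single peak from 155603691 to 155605244 lay wholly on 1 row and scored 104. In the second widest domain, both peaks, with scores of 65.4 and 52.6, had 97.1% and 98.6% of their length on rows.

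The 7 peaks across an edge had 1.63% to 67.1% of their length on rows. The highest score was 185, at the lower edge of the widest domain of all, on chromosome 7 from 149627071 to 149629681, with 28.3% of the peak on rows. On chromosome 1 there were 3 such peaks, from 148175888 to 148177849, from 120658772 to 120661909 and from 149682115 to 149685991, with scores of 158, 152 and 130. On chromosome 17 a peak from 46895716 to 46897306, with a score of 99.5, crossed the upper edge of a domain of 122 kb, which held 1 more peak on rows. The other 2 had scores of 74.9 on chromosome 2 from 91843921 to 91849805 and 60.5 on chromosome 7 from 1348098 to 1348966.

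Domains that met CHD5 were better covered and wider than those that did not. The 53 had a median cover of 68.7% and a median width of 82.1 kb, and the other 351 had 54.8% and 67.0 kb. Their largest gaps were alike in the middle, with medians of 2372 and 2368 bp. In 4 classes of 101 domains ordered by cover, 4.95% met CHD5 in the class with the lowest cover (2.13% to 11.1%), then 3.96% (1.55% to 9.74%) and 17.8% (11.6% to 26.4%), and in the class with the highest cover 25.7% did (18.22% to 35.05%). Chromosomes 1, 7 and 17 moved with this pattern, holding 8 of 101 domains in the lowest class and 49 of 101 in the highest. Without these chromosomes 5.38%, 5.06%, 17.7% and 9.62% of domains met CHD5 in the 4 classes, the last from 5 of 52 domains, so the order of the classes did not hold there. Of the domains of 100 kb or wider 22.9% met CHD5 (14.6% to 34.0%), and of those from 50 to 100 kb 11.1% did (8.14% to 14.9%). A longer span meets more peaks at the same density, and these shares and widths are not scaled to length. Starts per Mb inside were 3.07 (2.30 to 4.00) in domains of 75 kb or wider and 2.38 (1.87 to 2.97) in all wide domains. The former are part of the latter and hold 54 of the 77 starts, so these intervals do not compare separate widths. The density in domains of 50 to 75 kb alone is not given here.

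A few chromosomes carried most of the contact. Chromosomes 1, 7 and 17 held 118 of the wide domains, of which 28, or 23.7% (16.96% to 32.2%), met CHD5, and the other autosomes had 25 of 286, or 8.74% (5.99% to 12.6%). The same 3 chromosomes supplied 50 of the 82 peaks. Over their whole length they also had the highest CHD5 densities of the autosomes, at 14.1, 14.2 and 19.9 peak starts per Mb. These 3 were grouped after their values were seen, and single chromosomes did not divide this way. Chromosome 7 alone had 19.6%. Of the others, chromosome 9 had 28.6%, 16 had 25%, 10 had 22.2% and 3 had 20%, from 6, 4, 2 and 1 domains with CHD5. The remaining autosomes had 11.1% or less. Chromosomes 8, 11, 13, 14, 20, 21 and 22 had no wide domain that met CHD5. Near chromosome ends 21.5% of domains met CHD5 (13.3% to 33.0%), beside the unlisted stretch 13.6% (8.67% to 20.7%) and elsewhere 10.3% (6.89% to 15.1%), with overlapping intervals. CHD5 peak starts over these zones numbered 14.8, 9.39 and 12.2 per Mb.

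Peaks gathered in a few domains. The third most covered domain, on chromosome 7 from 155162094 to 155333670, and that on chromosome 12 from 54293801 to 54406733 had 4 each. On chromosome 7 all 4 lay on rows, with 3 more peaks in the lower flank and 1 in the upper. On chromosome 12, where 113 kb were covered at 68.7%, 3 lay on rows and 1 in a gap, and 7 more lay in the 50 kb above the domain and none in the 50 kb below it. A further 5 domains had 3 peaks. The widest domain of all had 2 on rows and 1 across its lower edge. On the short arm of chromosome 7, the domains from 1224357 to 1310618 and from 1348462 to 1472295 had 3 each and were covered at 83.1% and 76.3%. On chromosome 1 those from 144320289 to 144399782 and from 161487466 to 161563033 had 3 each at 64.9% and 89.5%.

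Among domains with 2 peaks the widest were the second widest domain of all, one of 175 kb on chromosome 1 from 148755082 to 148929717, and one of 168 kb on chromosome 7 from 27087073 to 27254910, which was covered at 86.3%. The domain on chromosome 2 from 223118755 to 223178626 had none inside and 6 in the 50 kb above it. Beside the unlisted stretches, 25 CHD5 peaks met wide domains, with a median width of 2718 bp. Near the chromosome ends the median was 1588.5 bp and elsewhere it was 1514 bp.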

How the data were processed

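ChIP-seq region lists of 2 libraries were used, 1 for CHD5 and 1 for H3K27me3. Both are MACS peak calls made by the authors on 1 library each, per the file headers. Coordinates are in hg19 (per the submitters' processing notes). Neither the MACS version nor its threshold, background library or aligner is given in the sources used here. MACS can break a broad mark into short rows. The deposited score of each region, never under 50 and of unstated scale, was used only within its own list. The deposited starts, counted from 0, were turned into positions counted from 1.

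No rows of a list touched each other. Rows up to 3 kb apart were joined, and domains and overlaps were checked with bedtools 2.31.1 and on simulated domains. An overlap needed 1 shared bp. Each peak was classed for each domain separately, as inside, across an edge, or in a 50-kb flank. A peak inside 1 wide domain could thus also be a flank peak of a neighbouring one. For densities a peak was placed by its first base, and flanks were cut at neighbouring wide domains. Chromosome length ran to the last listed base. Wilson and exact Poisson intervals have a 95% level. No test was run, since each group has 1 library. Scripts ran in Python 3.11.15 with scipy 1.17.1, matplotlib 3.10.9, pandas 2.3.3 and numpy 2.4.6.

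Members and lists were chosen with earlier results of these data known. Named domains are the 10 widest, the 5 most and 5 least covered, the 10 with the most CHD5 peaks, the 5 with the most in flanks, the 5 with the widest 3 successive gaps and those at the limit, and named peaks are the 10 with the highest score in gaps and across edges. Zones, classes of cover, score classes and the split by chromosomes 1, 7 and 17 were added after their values were seen, and so were further peaks and domains named beside them. No annotation or sequence of hg19 was used here.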

Additional observations from a re-analysis of the deposited data

How the results depend on the processing

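No paired analysis was possible because each group has 1 library. The comparisons without chromosomes 1, 7 and 17 and without domains within 10 Mb of the longest unlisted stretch were chosen after seeing the data. Joining up to 2 kb gave 246 wide domains, up to 5 kb 788, and rows at or above the median score 185. The covered share of 60.7% was 69.0% with joining up to 2 kb, 48.6% up to 5 kb, 68.8% for rows at or above the median score, 64.8% from 75 kb, 58.5% from 40 kb, 58.1% without chromosomes 7 and 17, 56.5% without 1, 7 and 17, and 59.2% without domains beside the unlisted stretch.

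Domains with a CHD5 peak inside were 17.5% from 75 kb, 5.45% for CHD5 peaks at or above the median score and 8.39% without chromosomes 1, 7 and 17. Edge peaks were at 0.350% of domains without those chromosomes. Inside densities were 3.07, 0.740 and 1.44 per Mb under the same 3 settings. Flank densities were 6.77 per Mb with joining up to 2 kb, 7.59 for rows at or above the median score, 7.56 from 75 kb, 2.57 for CHD5 peaks at or above the median score and 8.31 without other domains. Domains with CHD5 in a flank were 40% for rows at or above the median score, 37.5% from 75 kb, 15.8% for CHD5 peaks at or above the median score, 26.98% without other domains, 19.6% with 25-kb flanks and 46.3% with 100-kb flanks. Gap peaks were 21.0% with joining up to 5 kb, 13.04% for CHD5 peaks at or above the median score and 35.1% where 50% of the peak counted. Higher limits leave fewer regions by construction; other causes were not tested. Leaving out chromosomes 7 and 17 left 329 wide domains, leaving out 1, 7 and 17 left 286, and leaving out those beside the unlisted stretch left 279. The other shares and densities stayed within the counting interval of the reported value. Depth is unknown, so sparse CHD5 inside domains cannot be told apart from peaks below the calling threshold.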
